A study of Mus musculus with 2 samples.

Results

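Transcripts of 9 enzymes of heme metabolism were compared between liver of Pgrmc1 KO and WT mice. They were taken by symbol from a deposited table of 24054 genes: 7 enzymes of heme synthesis (Alas1, Alad, Uros, Urod, Cpox, Ppox and Fech), heme oxygenase 1 (Hmox1) and biliverdin reductase B (Blvrb). All 9 were listed. None of the 9 reached a change of 40%, the fold part of the study's rule for transcripts, and none reached 20% either.

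The KO mice (Pgrmc1 -/Y, hemizygous for the X-linked gene) lacked exons 1 and 2 of Pgrmc1 in the whole body, through a floxed allele and Sox2-Cre, which acts in the early embryo; whether the WT mice carried Cre is not given in the sources used here. Both genotypes were male, 8 to 12 weeks old and labelled C57BL/6. Per the methods the floxed line was bred with C57BL/6N mice and the Cre came from the line B6.Cg-Tg(Sox2-cre)1Amc/J, and no background is stated there for the WT mice. Liver RNA of 5 mice per genotype was pooled, 2.5 μg from each mouse, and sequenced as 1 library per genotype, so differences among mice of a genotype cannot be seen and nothing below has a replicate check. The study used these libraries to ask whether the effect of Pgrmc1 on cytochrome P450 protein arises at the transcript level. Pgrmc1 itself was at 0.68 TPM in KO against 949.49 in WT, as the genotype labels state.

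Heme is made from glycine and succinyl-CoA in a chain of enzymatic steps, which begin in the mitochondrion, pass through the cytosol and end in the mitochondrion, where ferrochelatase inserts iron into protoporphyrin. In hepatocytes the first enzyme, Alas1, sets the rate and is repressed by heme itself, and much of the heme goes to microsomal P450 enzymes. Heme oxygenase opens the ring and releases iron, carbon monoxide and biliverdin, which biliverdin reductases turn into bilirubin. Pgrmc1 is itself a heme-binding protein of the membrane-associated progesterone receptor family.

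The first step is carried out by either of a pair of isozymes, Alas1 in all tissues and Alas2 in red cell precursors, and both transcripts were plentiful in these livers. The promoters of the pair are shown because the motif of the erythroid factor GATA1 occurs in only 1 of the pair. Each is the stretch of 250 bases before the RefSeq start (GRCm38.p6), 5′ to 3′ along the gene, Alas1 on the minus strand at chr9:106247955-106248204 and Alas2 on the plus strand at chrX:150547167-150547416. Capitals mark matches on either strand to the GC box GGGCGG (in both promoters) and to the GATA motif AGATAA (in Alas2 alone).
Alas1: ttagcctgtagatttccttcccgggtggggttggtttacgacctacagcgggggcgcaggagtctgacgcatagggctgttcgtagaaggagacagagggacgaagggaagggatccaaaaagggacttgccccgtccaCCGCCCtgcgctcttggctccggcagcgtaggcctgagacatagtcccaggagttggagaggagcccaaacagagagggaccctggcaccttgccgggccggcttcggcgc
Alas2: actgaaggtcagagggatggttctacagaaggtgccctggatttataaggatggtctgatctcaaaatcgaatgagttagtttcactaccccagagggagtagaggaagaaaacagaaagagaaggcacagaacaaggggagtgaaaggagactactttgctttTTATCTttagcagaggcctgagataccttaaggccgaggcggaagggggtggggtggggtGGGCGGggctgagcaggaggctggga
The GATA motif of Alas2 lies 86 to 81 bases before the start, and the GC box lies 111 to 106 bases before the start of Alas1 and 26 to 21 bases before that of Alas2. The GATA motif is found in 10.2% and the GC box in 33.0% of 27025 promoters of the same length, and none of the matches overlap. The Alas2 window also holds 1 match to TATAAA, found in 13.0% of promoters, and the Alas1 window none. GC content was 62.4% in the Alas1 window and 51.2% in that of Alas2. The promoters of Fech and Hmox1 were not searched. Among promoters of the remaining enzymes, the E-box CACGTG (6.04% of promoters) was present in those of Alad, Uros and Urod. The NRF1 core CGCANGCG (6.95%) was present in those of Uros and Cpox. The Uros window (chr7:133709296-133709545) lies inside the gene, whose RefSeq span on the minus strand reaches 133710467, so its matches are not upstream of that end. The windows of Urod, Ppox and Blvra overlap their gene spans in part, and that of Hmox2 lies inside its gene span. The Ppox promoter held 4 matches to CCAAT (34.5%) and that of Blvrb held 4 to the GC box. A match to a motif describes the letters of the window and not binding.

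TPM (a transcript count corrected for length and scaled to a fixed total) gives each gene's share of the transcript pool, so levels of different genes can be compared on this scale as far as the authors' transcript lengths hold. The change of a gene is the log2 of KO over WT after 1 TPM was added to each level, a scale that understates differences in genes of low level. Genes reaching a fold of 1.4 on it were called up, and those at 0.6 or below were called down. Of 11623 genes whose mean level reached 1 TPM, 1.21% were up and 0.301% were down by this rule, and 0 of the 9 enzymes were in either class. The study also set a cutoff on the probability of differential expression, which was not applied here. For proteins it used a 20% change with a signal-to-noise cutoff, also not applied here. With this wider rule of a 20% change, 5.39% of genes were up, 3.4% were down and again 0 of the 9 enzymes were in either class. With so small a background the absence of calls among 9 genes does not set them apart from other genes. The median change of the 9 was -0.02, beside -0.01 over all genes tested. Of all genes tested 45.8% lay above 0, the share to set beside the counts above and below 0 that follow, and 4 of the 9 enzymes did.

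Counting error was taken from a second deposited table, which gives the authors' mean of each library, that is, estimated reads divided by a size factor. The estimated total was 22086688 reads in KO and 29710410 in WT. The 95% intervals below are Clopper-Pearson intervals of the log2 ratio of those means, and they hold counting error alone. Whether an interval leaves out 0 depends on depth as well as on the change. That of the apolipoprotein gene Apob, on 463809 and 614029 reads, did so at a log2 ratio of 0.03 (0.02 to 0.03). The share of all genes whose interval leaves out 0 is not given here.

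**Figure D1:**
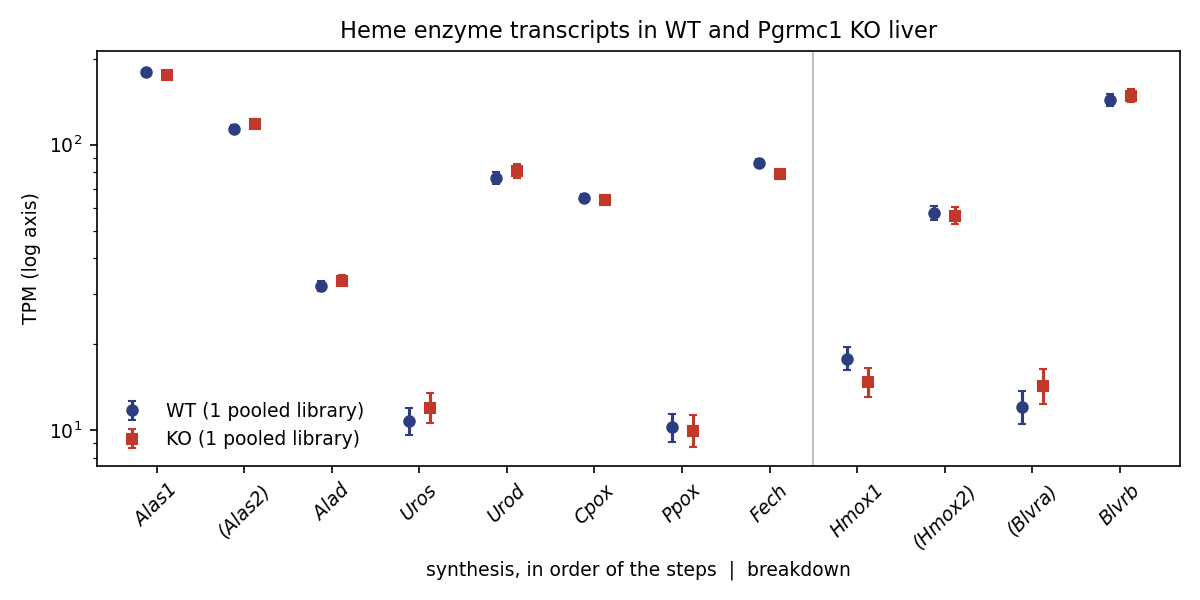
TPM (log axis) of the 9 enzymes and, in brackets, of 3 further enzymes of the same steps, in the WT (circles) and KO (squares) library, with exact Poisson 95% intervals of the estimated reads. Alas1 is highest in both libraries, Ppox is lowest, and each pair of symbols lies close together.

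Alas1 (Entrez gene 11655; chr9:106233455-106247954 of GRCm38), which condenses glycine with succinyl-CoA, was the most abundant of the 9, at 174.74 TPM in KO against 179.6 in WT. Its log2 change was -0.04, and the ratio of means had an interval of -0.07 to 0.03, the narrowest among the enzymes, on 6323 and 8664 reads. At this depth the counts of the 2 libraries bound the difference in Alas1 to a few percent. The erythroid isozyme Alas2 (Entrez gene 11656; chrX:150547417-150570622) stood at 118.23 TPM in KO against 113.62 in WT, and its log2 change was 0.06, with an interval whose lower end was 0.005. The sum of both isozymes was 293.0 TPM in KO against 293.2 in WT. The ratio of Alas1 to Alas2 was 1.48 in KO and 1.58 in WT.

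Alas2 is an erythroid gene, and a list of 16 erythroid markers shows what other red cell RNA was present. The summed level of its 14 measured genes, Alas2 among them, was 1426 TPM in KO against 1446 in WT, nearly all of it from globins and Alas2. Of the 7 whose mean level reached 1 TPM, 2 lay above 0 and 5 below on TPM, with a median of -0.26. Hba-a1, an alpha globin, had the highest change, 0.19, with 683.2 TPM in KO against 600.28 in WT, while its near-identical copy Hba-a2 changed by -0.14, with 490.45 TPM in KO against 542.1 in WT. Of the 14 genes, 7 had a mean under 1 TPM, among them Gata1 at 0.04 TPM in KO against 0.03 in WT and the anion exchanger Slc4a1 at 0.53 TPM in KO against 0.35 in WT. Klf1, an erythroid transcription factor gene, was at 1.72 TPM in KO against 2.38 in WT. Globin and Alas2 messages, which reticulocytes carry, were thus abundant. Tfrc was at 10.84 TPM in KO against 13.2 in WT, a change of -0.26 (interval -0.41 to -0.14). The remaining erythroid markers were low or near 0. The beta globin Hbb-bs was down, at 41.29 TPM in KO against 77.14 in WT, with a log2 change of -0.89, while Alas2 was not, and its near-identical copy Hbb-bt changed by -0.27; reads can be shared within each pair of globin copies. On the authors' means Hbb-bt changed by 0.04 (interval -0.12 to 0.21) and Hba-a2 by -0.01 (-0.08 to 0.06). The list median and the sign of Hbb-bt thus depend on the measure used, while Hbb-bs was at -0.85 there. The part that blood RNA has in the levels of Alas2 and of the shared enzymes was not tested.

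Those of the listed synthesis enzymes that act in the cytosol follow. Alad, which joins a pair of aminolevulinate molecules to porphobilinogen, was at 33.39 TPM in KO against 31.99 in WT, and its log2 change was 0.06 (interval -0.01 to 0.16). It had 4.24 times the reads per TPM of Urod in KO and 4.26 times in WT, which the lengths of their GENCODE transcripts do not give, so its level relative to other enzymes is uncertain. Uros, which closes the ring, had the highest change of the 9, 0.14, with 11.97 TPM in KO against 10.74 in WT. Its interval was wide, -0.06 to 0.41, because it rests on 276 and 331 reads. Urod, which removes carboxyl groups from the ring, was at 80.8 TPM in KO against 76.35 in WT, a change of 0.08 (-0.01 to 0.21). For each of these 3 enzymes the interval held 0.

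The last 3 steps return to the mitochondrion. Cpox, which makes protoporphyrinogen, stood at 64.13 TPM in KO against 64.85 in WT and had the change closest to 0 of the 9, at -0.02 (-0.08 to 0.07). Ppox, which oxidises protoporphyrinogen and was the lowest of the 9, was at 9.97 TPM in KO against 10.23 in WT, a change of -0.03. Its interval of -0.27 to 0.23 was the widest of the 9, on 231 and 317 reads, so a difference of up to that size was not detectable at this depth.

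Fech, ferrochelatase (Entrez gene 14151; chr18:64456542-64489098), was the 1 enzyme among the 7 of synthesis whose counting interval did not hold 0. It was at 78.69 TPM in KO against 86.49 in WT, and its log2 change was -0.13, with an interval of -0.19 to -0.06 on 3029 and 4457 reads. The libraries thus differed in Fech by more than counting error, but the fold of 0.911 was well inside both rules. Among 6235 genes whose mean level reached 10 TPM, 26.6% lay at least as far from 0 as Fech.

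Together, the 7 synthesis transcripts listed here summed to 453.7 TPM in KO against 460.2 in WT, with a KO to WT ratio of 0.986. The interval of the log2 ratio for their summed reads was -0.04 to 0.02. Alas1 made up 38.5% of the sum in KO and 39.0% in WT, and without it the ratio was 0.994. The shares of Urod (17.8% in KO, 16.6% in WT) and Fech (17.3% and 18.8%) traded places, and in KO the counting intervals of their levels overlapped, whereas in WT Fech was higher than Urod beyond counting error. The order of the other enzymes was the same in both libraries: Alas1, then Blvrb, the pair Urod and Fech, Cpox, Alad, Hmox1, Uros and Ppox. Uros and Ppox, the lowest pair, did not differ beyond counting error in either library, while Hmox1 and Uros did in WT but not in KO.

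Heme is then built into P450 enzymes, among other hemoproteins. The 100 P450 genes of the table had a total of 20893.9 TPM in KO against 18491.3 in WT, a ratio of 1.13, which is 46.1 TPM for each TPM of the 7 synthesis transcripts in KO and 40.2 in WT. The P450 sum was thus higher in KO, while the synthesis sum was not. Cyp3a11 alone was at 3952.15 TPM in KO against 2808.29 in WT, a large part of that difference. These are transcript levels, and the study reported that P450 proteins tended to be lower in KO liver membranes.

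**Figure D2:**
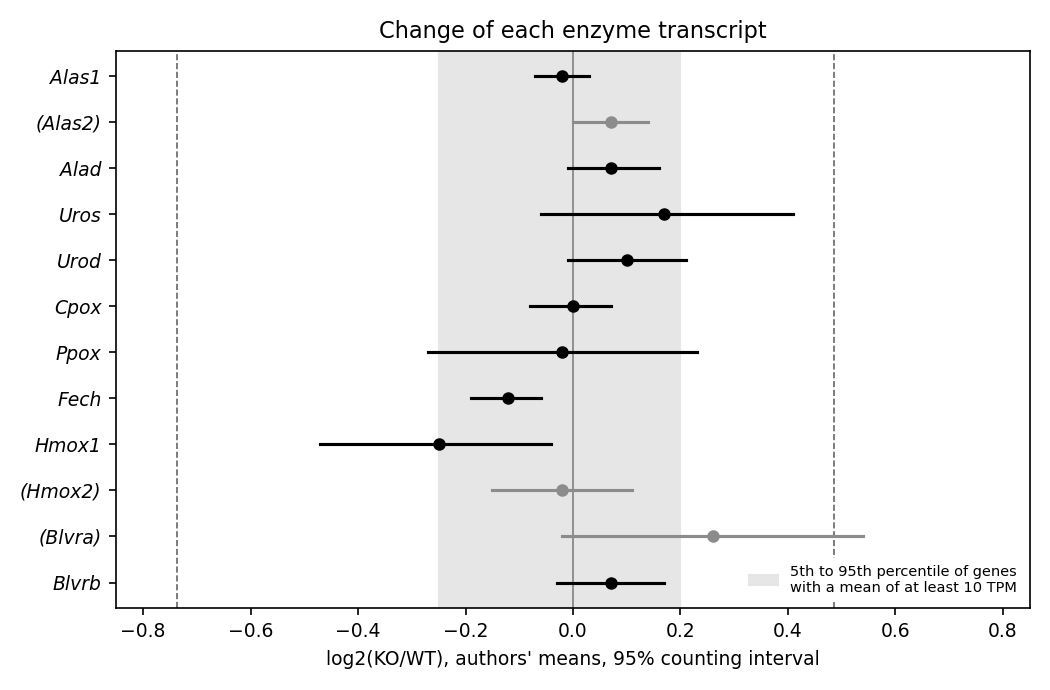
Log2 ratio of the authors' means (points) with its 95% counting interval (lines) for the 9 enzymes (black) and 3 further enzymes (grey, in brackets), with the 5th to 95th percentile of TPM changes of genes whose mean level reached 10 TPM shaded and the 1.4 and 0.6 fold rules dashed. Fech and Hmox1 are the black intervals that leave out 0, and no point reaches a dashed line.

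Hmox1, the inducible heme oxygenase (Entrez gene 15368; chr8:75093618-75100593), had the lowest change of the 9. It was at 14.74 TPM in KO against 17.77 in WT, and its log2 change was -0.25, and its interval of -0.47 to -0.04 lay below 0 on 291 and 469 reads. Among genes whose mean level reached 10 TPM, 4.83% had a lower change, and 7.94% lay at least as far from 0. The fold of 0.839 did not reach 0.8. Its constitutive relative Hmox2 was the more abundant isozyme, at 56.44 TPM in KO against 57.77 in WT, with a change of -0.03 (-0.15 to 0.11). The ratio of Hmox2 to Hmox1 was 3.83 in KO and 3.25 in WT, and the sum of both was 71.2 TPM in KO against 75.5 in WT.

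In liver much of the heme oxygenase 1 is found in Kupffer cells, the resident macrophages, which clear old red cells. Markers of these cells lay on the other side of 0 from Hmox1: of 12 listed whose mean level reached 1 TPM, 11 were above 0, with a median of 0.17, and their sum was 422 TPM in KO against 371 in WT. Folr2 was highest at 0.44 and Cd68 lowest at -0.26, and 0 passed the 1.4 or 0.6 rule. The 20% rule gave 2 up and 0 down. In bulk liver RNA, a change in the number of cells of a type cannot be told apart from a change of RNA per cell. Hepatocyte markers had a median of 0.01 over 11 genes, from -0.09 for Ttr to 0.09 for Fgb. Endothelial markers lay below 0 in 8 of 8 genes, with a median of -0.09, from -0.60 for Lyve1 to -0.01 for Stab1, which came to 0 once the median gene was set to 0. Stellate cell markers had a median of -0.20 over 9 genes, from -0.53 for Rgs5 to 0.17 for Lrat. The part of these shifts in the value of Hmox1 was not tested.

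Blvrb, a biliverdin reductase that also reduces flavins and is abundant in red cells, was the second most abundant of the 9, at 148.3 TPM in KO against 143.34 in WT, a change of 0.05 (-0.03 to 0.17). Blvra, the reductase that makes the main adult bilirubin isomer, was far lower, at 14.28 TPM in KO against 12.04 in WT, with a change of 0.23. The interval of Blvra was -0.02 to 0.54 on 200 and 225 reads and held 0. Blvrb exceeded Blvra by a factor of 10.4 in KO and 11.9 in WT.

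**Figure D3:**
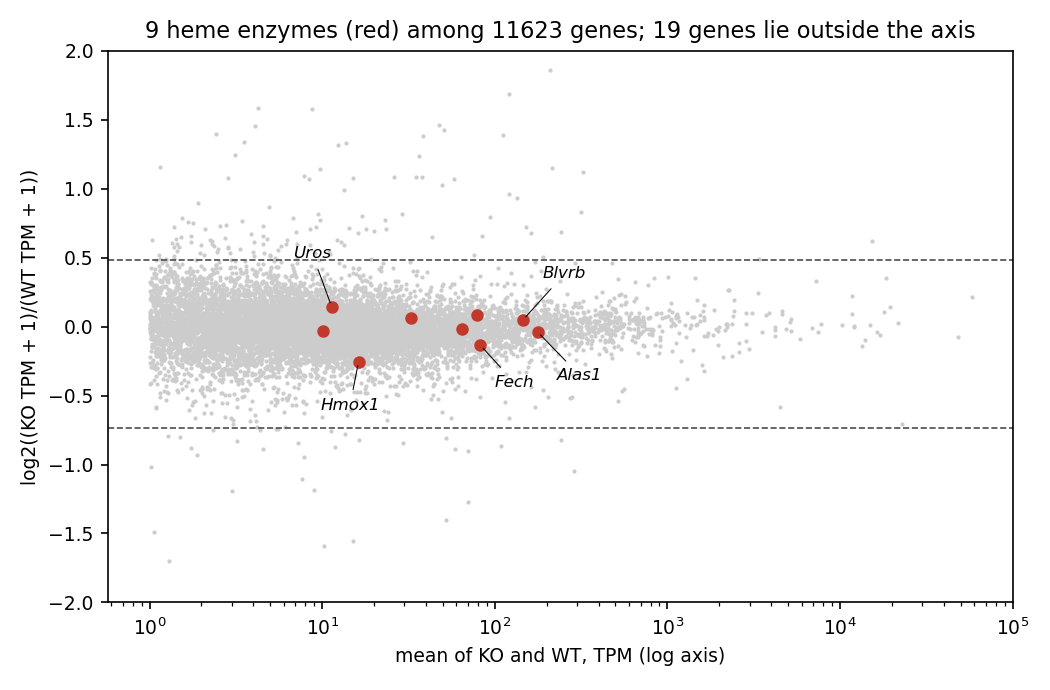
Log2 change against mean level (TPM, log axis) for 11623 genes (grey) with the 9 enzymes in red and the 1.4 and 0.6 fold rules dashed; 19 genes lie beyond 2 or -2. The 9 enzymes lie within the cloud of genes of like level, with Hmox1 near its lower edge.

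The expression of Alas1 and Hmox1 is set by well-known regulators, and some of these did change. Of 17 genes that act on Alas1, all whose mean level reached 1 TPM, 2 were up and 0 were down, with a median of 0. By the 20% rule 2 were up and 2 were down. Arntl, a clock activator, was at 16.42 TPM in KO against 10.53 in WT, a change of 0.60, and its partner Npas2 was at 1.52 TPM in KO against 0.76 in WT, a change of 0.52 on 85 and 56 reads. Nr1d1, which encodes the heme-sensing repressor REV-ERB alpha, was the lowest, at 23.84 TPM in KO against 31.87 in WT, a change of -0.40. Of 16 clock genes, 6 were above 0 and 10 below, with a median of -0.12, from 0.60 for Arntl to -0.57 for Ciart, and the hour at which these livers were taken is not given in the sources used here. Alas1, which is known to follow the clock in liver, changed by -0.04, and its relation to the clock genes was not tested. Among regulators picked for mention after their values were seen, the receptor genes Nr1i3 (CAR) and Nr1i2 (PXR) changed by 0.20 and -0.24, the fasting coactivator Ppargc1a by -0.30, and Clpx, whose product acts on the Alas1 enzyme in mitochondria, by 0.23.

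Alas1 is also induced by drugs through CAR and PXR, and by fasting. Of 10 targets of these receptors whose mean level reached 1 TPM, 3 were up and 0 were down, and the median was 0.24. Cyp2b10 was at 18.24 TPM in KO against 8.7 in WT, a change of 0.99, and Cyp3a11 and Cyp2c55 each changed by 0.49, while the transferase gene Gstm3 was lowest at -0.67. The rule for falls is the stricter one on a log scale: at the mirror of the rise, a fold of 0.714, which 1.02% of all genes and 0 of the 9 enzymes reached, Gstm3 was down. Of 12 genes induced by fasting, 4 were up and 0 were down, with a median of -0.02. These were Irs2 (1.32), Igfbp1 (1.15), G6pc (1.12) and Pdk4 (0.50), and Fgf21 was lowest at -0.73. Fgf21 was down with a pseudocount of 0.1 TPM (-0.89) and with the authors' means (-0.90), and both Fgf21 and Sds were down at the mirror of the rise. G6pc, for glucose release, was at 445.52 TPM in KO against 204.76 in WT. In the same pair of libraries Alas1 had a fold of 0.973. Whether its value relates to those of these lists was not tested.

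Of 14 regulators of Hmox1 and their other targets whose mean level reached 1 TPM, 3 were above 0 and 11 below, with a median of -0.05. None was up or down, and by the 20% rule 0 were up and 1 was down. Bach1, the heme-sensing repressor of Hmox1, was lowest, at 16.24 TPM in KO against 20.56 in WT, a change of -0.32 (interval -0.43 to -0.23). Nfe2l2, which encodes the activator NRF2, was highest at 0.04. The NRF2 targets Nqo1 and Gclm both changed by -0.02, Gclc by -0.05 and Txnrd1 by 0.0. Srxn1 changed by -0.16 (interval -0.29 to -0.02), and the partner gene Mafg by -0.31 (-0.46 to -0.14).

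Next come the carriers of precursors, iron, porphyrin and heme. Of 14 listed, 12 were measured, 9 lay above 0 and 0 were up or down, with a median of 0.04. With the 20% rule 1 was up and 0 were down. Slc25a28 (mitoferrin 2), which brings iron into mitochondria outside the erythroid line, had the highest change, 0.38, with 17.99 TPM in KO against 13.59 in WT and an interval of 0.20 to 0.64. Its erythroid counterpart Slc25a37 changed by 0.04. Slc25a38, which carries glycine for the first step, was lowest at -0.15 (14.08 TPM in KO, 15.78 in WT), and its interval of -0.37 to 0.07 held 0. Abcb6, a porphyrin carrier, changed by 0.12 (0.04 to 0.23), and the others, Slc25a39, Slc25a40, Tmem14c, Abcb8, Abcb10, Abcg2, Slc46a1 and Slc48a1, lay between -0.09 for Slc48a1 and 0.07 for Abcb8.

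The abundant plasma proteins that scavenge heme had higher transcript levels in KO. Hpx (hemopexin, which binds free heme) was at 3648.39 TPM in KO against 3084.67 in WT, a change of 0.24, and Hp (haptoglobin, which binds hemoglobin) was at 2437.23 TPM in KO against 2030.82 in WT, a change of 0.26. Both intervals lay above 0, at 0.24 to 0.27 and 0.26 to 0.30. Cd163, the macrophage receptor for haptoglobin with hemoglobin, was at 13.11 TPM in KO against 10.27 in WT, a change of 0.32, while Lrp1, the hemopexin receptor, changed by 0.05. The heme-binding proteins Hebp1 and Hebp2 were at a fold of 0.997 and 1.13, and the paralog Pgrmc2 changed by -0.25 (interval -0.37 to -0.12). Of these 7 genes, 0 reached the 1.4 rule, while Hp and Cd163 reached a rise of 20%. Hpx and Hp are also acute phase genes, and of 17 such genes 16 were above 0 and 7 were up (Saa1, Saa2, Saa3, Orm2, Lcn2, Mt1 and Mt2), with a median of 0.35, from -0.12 for Crp to 3.69 for Saa2. Hmox1, also known as a stress-induced gene, stood at -0.25 beside them, and its relation to these genes was not tested.

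Of 9 genes that take up, conjugate or export bilirubin, 5 lay above 0 and 0 were up or down, with a median of 0.01. The 20% rule gave 1 up and 1 down. Ugt1a1, the enzyme that conjugates bilirubin, was highest, at 215.63 TPM in KO against 178.63 in WT, a change of 0.27 (interval 0.24 to 0.32). Gsta1, one of the glutathione transferases, was lowest at -0.50, on 49 and 99 reads. The uptake carriers Slco1b2, Slco1a1, Slco1a4 and Slco2b1 changed by -0.03, -0.10, 0.11 and 0.09, the export pump Abcc2 by -0.13 and Abcc3 by 0.03, and Gsta3 by 0.01.

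**Figure D4:**
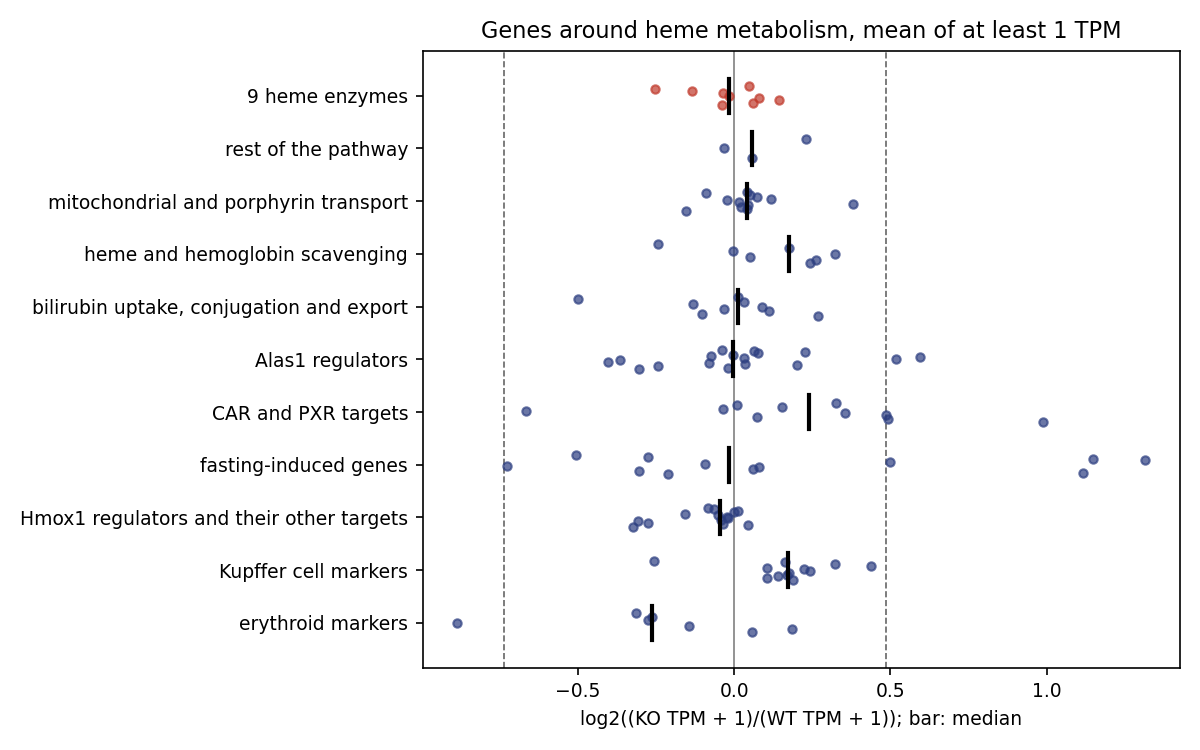
Log2 change (horizontal axis) of each gene whose mean level reached 1 TPM in the 9 heme enzymes (red) and 10 further lists (blue), with bars at the medians and the 1.4 and 0.6 fold rules dashed. The enzymes lie between -0.25 and 0.14. Genes of the Alas1 regulator, receptor target and fasting lists reach past the upper dashed line, and the erythroid marker Hbb-bs lies past the lower one.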

How the data were processed

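Per the labels and the study's methods, stranded total RNA libraries were aligned to mm10 with RSEM 1.2.09 and Bowtie after CASAVA 1.8.2. The authors deposited posterior mean TPM per gene, scaled between libraries (sums of 1005325 in KO and 994702 in WT). They also deposited EBSeq output for 16318 genes, from which only the signal of each library (expected reads divided by a size factor) was used. Its columns of fold changes and posterior probabilities were not used. These signals were assigned to genotypes by the headings of the same columns in the study's supplementary table.

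The most frequent signal, 1.16 in KO and 0.86 in WT, was taken as 1 read. Within 0.02, 78.4% and 75.0% of values were whole, so no count test was run, and estimated reads were rounded to whole numbers for intervals. Without molecular identifiers, intervals cover counting error only.

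Since each genotype was a single pooled library, no p-value is given. A pseudocount of 1 TPM was added, and counts of up and down genes used those averaging 1 TPM or more. The enzymes and the gene lists were chosen with earlier results of these data known. Genes named are Pgrmc1, the 9 enzymes, every gene of the 4 heme-related lists (further enzymes, carriers, scavengers, bilirubin), and the highest, the lowest and the called genes of other lists; others were named after their values were seen. Of 217 listed genes, 208 were in the table; some items of the lists as first written are not reported here and were left out of every list count. Coordinates are RefSeq GRCm38; overlaps and shared 100-base windows are from GENCODE M21. Motifs were searched in the promoters of 10 of the 12 enzymes, all but Fech and Hmox1. Calls and intervals were tested on simulated data. Alternatives were another pseudocount, the authors' signals, centring, rescaling, other thresholds and other filters. Tools were scipy 1.17.1, pandas 2.3.3, matplotlib 3.10.9 and numpy 2.4.6 under Python 3.11.15.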

Additional observations from a re-analysis of the deposited data

How the results depend on the processing

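None of the 9 enzymes was up or down under any of the alternatives run on them: a pseudocount of 0.1 TPM, leaving the 50 most abundant genes out of the scaling, setting the median gene to 0, use of the authors' means, the mirror of the rise (0.714) for falls, and a 20% change. Their median stayed between -0.02 and 0, and was 0.02 with the 3 further enzymes. The log2 ratio of the summed synthesis transcripts lay between -0.021 and -0.008. No value of a single enzyme moved by more than 0.03 or by more than its counting error (36 values). Among the 81 genes that the naming rule gave, shifts beyond counting error were seen in 9 of 324 values, those of Pgrmc1, Hpx, Cyp3a11, Ttr and Fgb, and 0 called values changed sign. In the further lists, alternatives added after seeing the data changed some calls: at the mirror of the rise Gsta1, Gstm3, Fgf21, Sds, Ciart, Lyve1 and Rgs5 were also down, with 0.1 TPM or the authors' means Gadd45b and Lgr5 were also up and Fgf21 down, and with the authors' means Folr2 was up. Outside the naming rule, Hbb-bt went from -0.27 to 0.04 with the authors' means. With a minimum of 10 TPM, 62 genes were up and 17 down in place of 141 and 35, since fewer genes were tested. Leaving out a replicate was not possible with 1 library per genotype. No paired analysis was possible because the mice were pooled into a single library for each genotype. Depth limits Ppox, Uros, Hmox1 and Blvra, which rest on the fewest reads.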

Other observations

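A list of hemoproteins other than P450, with partner proteins such as Cyb5r3, was also compared. Cyb5r3 itself changed by -0.20 (interval -0.23 to -0.14). Of 11 measured at 1 TPM or more on average, 5 were above 0 and 0 were up or down, with a median of -0.03, from 0.12 for Suox (sulfite oxidase) to -0.32 for Tdo2. With the 20% rule 0 were up and 1 was down. Tdo2, the tryptophan dioxygenase whose loading with heme is a classic gauge of free heme in hepatocytes, was at 1453.23 TPM in KO against 1819.52 in WT, on 29960 and 50105 reads, with an interval of -0.33 to -0.29. Cat (catalase) stood at 1938.43 TPM in KO against 1979.94 in WT, named after its value was seen.

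By position in the lobule, pericentral genes had a median of 0.15 (12 of 13 above 0, from -0.11 for Cyp27a1 to 0.78 for Tbx3, with Tbx3 and Rhbg up), and periportal genes had -0.16 (1 of 13 above 0, from -0.51 for Sds to 0.08 for Ctsc, 0 up or down). By the 20% rule 4 pericentral genes were up and 0 down, and 0 periportal genes were up and 2 down. Alas1, whose transcript is richer around the central vein, changed by -0.04 beside them. The relation between the values was not tested.

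The level of Alad depends on the length RSEM gave it. The number of reads behind 1 TPM was highest for Alad among the 9 enzymes, 61.4 in KO and 82.2 in WT, and lowest for Blvrb, 9.46 and 12.6. Alad had 4.24 times the reads per TPM of Urod in KO and 4.26 times in WT, although the longest GENCODE transcripts of the pair have 1769 and 1489 bases. The place of Alad in the order of levels therefore rests on the authors' gene models, while its change between libraries does not. The transcript set the authors used is not given in the sources used here.

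Shared sequence was small for the 9 enzymes. Of the 100-base windows in their transcripts, 0.813% for Cpox, 0.256% for Fech and 0.033% for Urod were found in another gene, and 0 for the other 6. On the opposite strand, exons of Ppox overlap B4galt3 (17.5% of the exonic bases of Ppox; B4galt3 at 6.55 TPM in KO against 6.33 in WT), and exons of Hmox2 overlap Cdip1 (40.2% of those of Hmox2; 42.57 and 47.99 TPM). The library kit keeps strand and the authors set a strand option whose value is not given, so the share of such reads was not tested.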
